A study of Mus musculus with 9 samples.

Results

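RNA of 6 genes that shape how the heartbeat starts and spreads was measured in mouse hearts: the sodium channel genes Scn4b and Scn4a, the pacemaker channel genes Hcn2 and Hcn4, and the gap junction genes Gja1 and Gja5. They were taken by gene symbol from a table of 13890 genes. All 6 had enough counts to be tested and were among the 13364 genes tested. Hcn2 RNA was 1.87-fold lower in the libraries labelled T than in S and 1.55-fold higher in A + T than in the libraries labelled T, and it was the single gene of the 6 with an adjusted P-value under 0.05 in either comparison. None of the 6 passed in A + T vs. S.

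Each heartbeat is an electrical wave passed from cell to cell. Voltage-gated sodium channels open to give the fast upstroke of the wave, HCN channels carry an inward current after each beat that lets pacemaker tissue fire again, and connexins form the gap junctions through which current enters the neighbouring cell. Sinus and atrioventricular nodes, His-Purkinje fibres, atria and ventricles use different members of these families, so that whole-heart RNA mixes several sources.

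The 9 libraries came from hearts of male NSG mice (NOD-scid/IL2Rg null), an immunodeficient strain that tolerates human cells, operated on at 8 weeks of age and killed 3 weeks later according to the labels. Animals 2, 3 and 5 had sham surgery with saline (S). Animals 11, 12 and 15 are labelled as carriers of HCT116, a human colorectal cancer cell line placed in the spleen (T). Animals 20, 21 and 22 are labelled as the same with ACVR2B/Fc, a soluble receptor that binds activins, myostatin and related ligands (A + T). The study's methods state that ACVR2B/Fc was injected weekly. HCT116 is 1 cell line, and sham mice that received ACVR2B/Fc are not analysed here. Because the labels number the animals, each library was counted as 1 animal. P-values set differences between groups against the spread between these animals, which the edgeR fit estimates over all groups together.

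One doubt about the labels precedes every result. When set beside the gene list that accompanies the study, the differences between the libraries labelled T and S lay closest to the column headed ACVR2B vs. sham and not to the one headed HCT vs. sham. T therefore stands for these libraries as labelled, and every direction against T refers to them whatever they received. Libraries held between 12392222 and 19732471 counts on genes. Of these counts, the ribosomal RNA gene Rn45s took 19.0%, 7.98% and 9.50% in animals 2, 3 and 5 of S. Its share was 4.57%, 5.18% and 19.5% in animals 11, 12 and 15 of T, and 8.60%, 17.4% and 19.6% in animals 20, 21 and 22 of A + T. RNA of airway and lung, summed over 4 genes such as Scgb1a1 and Sftpb, stood at 166.6 CPM (read counts scaled for library size) in animal 12 and 1278 CPM in animal 22, against 0.497 to 3.20 CPM in the other 7 libraries. Animal 22 also had the lowest sum of 6 cardiomyocyte genes, 38490 CPM against 43950 to 68860 CPM, and calls of the 6 genes and counts over gene lists that differed without animals 12 and 22 are given below both ways. The fit without these animals keeps only animals 11 and 15 in T and animals 20 and 21 in A + T.

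With edgeR's quasi-likelihood test and Benjamini-Hochberg adjustment, and with calls made at 0.05, 1 of the 6 genes (Hcn2, lower) passed in T vs. S, where 21.2% of all genes tested passed. In A + T vs. T, 1 of the 6 (Hcn2, higher) passed, where 5.88% of all genes did. In A + T vs. S, 0 of the 6 passed, where 8.31% of all genes did, 0 of the 6 had an unadjusted P-value under 0.05, and DESeq2, the likelihood ratio test and limma-voom also called 0. At the thresholds in the study's methods (at least 1.5-fold, with an unadjusted P-value under 0.05) Scn4a, Hcn2 and Gja5 passed in T vs. S (3 of 6, against 14.2% of all genes). Scn4a and Hcn2 passed in A + T vs. T (2 of 6, against 8.10%), and 0 of 6 in A + T vs. S (against 8.91%). When animals 12 and 22 were left out, 3 of 6 (Scn4a, Hcn2, Gja5) passed at an adjusted P-value under 0.05 in T vs. S, against 26.4% of all genes. The same fit called 2 (Scn4a, Hcn2) in A + T vs. T, against 6.55%, and 1 (Scn4a) in A + T vs. S, against 9.42%. The values of the compared groups did not overlap for 4 of the 6 genes in T vs. S (Scn4a, Hcn2, Hcn4 and Gja5, against 42.6% of all genes), for Hcn2 in A + T vs. T (against 25.4%) and for Gja5 in A + T vs. S (against 32.4%). The median log2 fold change of the 6 genes was −0.67, 0.24 and −0.20 in the 3 comparisons in that order, while that of all genes tested lay between −0.00376 and 0.00978. The comparisons of S and of A + T with T use the same T libraries, so their values are given side by side and not as independent evidence.

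**Figure D1:**
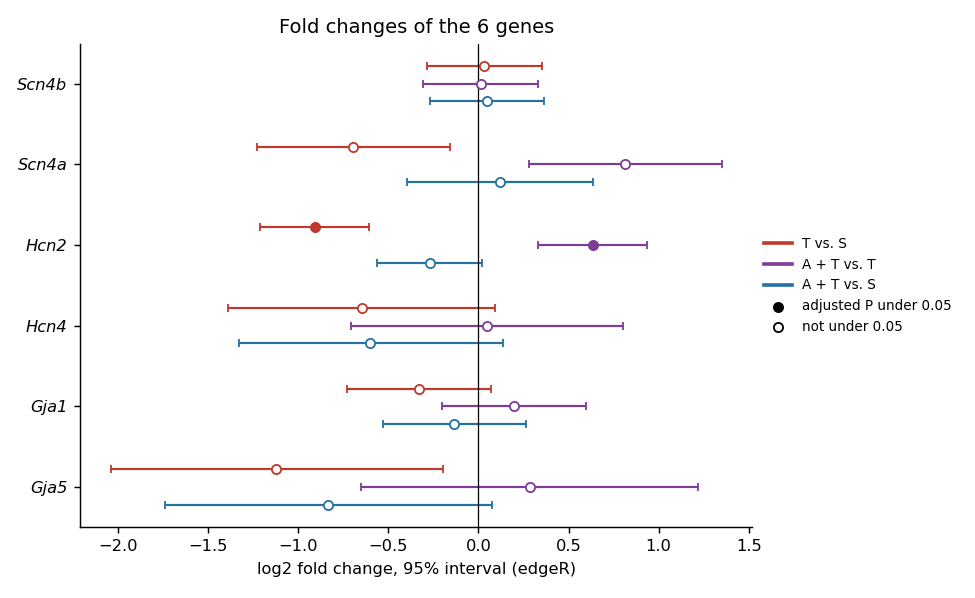
Log2 fold change (x axis) of each of the 6 genes in the 3 comparisons, with 95% intervals from edgeR's quasi-likelihood fit of 3 animals per group. Filled points have an adjusted P-value under 0.05. The points of Hcn2 in T vs. S (−0.91) and in A + T vs. T (0.64) are the filled ones.

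Hcn2 and Scn4a were the members with the lowest unadjusted P-values in both comparisons that involve T, and the sequences around their starts are shown to set the 2 genes side by side. Hcn2 lies on chromosome 10 from 79716634 to 79736108 on the plus strand of GRCm38.p6, and Scn4a on chromosome 11 from 106317545 to 106365559 on the minus strand. Each line gives the RefSeq reference from 250 bases before the gene start to 50 bases after it, 5′ to 3′, at chr10:79716384-79716683 and chr11:106349341-106349640, with CG pairs in capitals.
Hcn2: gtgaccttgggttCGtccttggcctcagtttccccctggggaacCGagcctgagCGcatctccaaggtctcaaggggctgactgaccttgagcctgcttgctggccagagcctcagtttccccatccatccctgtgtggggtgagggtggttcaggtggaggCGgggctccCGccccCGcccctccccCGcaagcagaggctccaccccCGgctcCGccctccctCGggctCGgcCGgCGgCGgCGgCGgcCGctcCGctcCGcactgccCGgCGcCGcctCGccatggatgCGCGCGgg
Scn4a: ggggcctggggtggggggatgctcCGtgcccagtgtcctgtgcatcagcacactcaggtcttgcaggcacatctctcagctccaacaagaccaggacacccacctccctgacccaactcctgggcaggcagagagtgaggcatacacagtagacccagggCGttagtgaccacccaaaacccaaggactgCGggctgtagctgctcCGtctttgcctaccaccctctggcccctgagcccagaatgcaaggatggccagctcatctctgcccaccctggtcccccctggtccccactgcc
The Hcn2 window held 26 CG pairs and was 72.3% G or C. The Scn4a window held 4 CG pairs and was 63% G or C. Of 32851 mouse promoter windows of this length, 83.1% held fewer CG pairs than that of Hcn2 and 31.4% fewer than that of Scn4a. The start shown for Scn4a is 1 of several, since RefSeq lists 3 transcripts of the gene and its annotated span reaches further upstream. The windows are a description, and no measurement here tested them.

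Scn4b encodes the beta-4 subunit, which modulates how sodium channels open and close. It lies on chromosome 9 from 45138624 to 45154155 on the plus strand. Its RNA stood at 50.3, 46.2 and 50.1 CPM in animals 2, 3 and 5 of S, at 59.0, 47.2 and 43.3 CPM in animals 11, 12 and 15 of T, and at 55.1, 56.3 and 40.0 CPM in animals 20, 21 and 22 of A + T. The groups overlapped fully, with the highest value in animal 11 and the lowest in animal 22. The log2 fold changes were 0.03 (95% interval −0.285 to 0.35) in T vs. S, 0.01 (−0.305 to 0.331) in A + T vs. T and 0.05 (−0.271 to 0.362) in A + T vs. S. Changes beyond 1.29-fold in either direction lay outside all 3 intervals.

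Scn4a encodes the pore-forming subunit known as the main sodium channel of skeletal muscle. It stood at 20.6, 17.2 and 21.7 CPM in S, at 12.4, 10.99 and 13.5 CPM in T, and at 26.1, 26.05 and 12.5 CPM in A + T. All 3 T hearts were below all 3 S hearts, whereas A + T held the 2 highest values of the 9 libraries and, in animal 22, a value within the range of T. In whole tissue, fewer cells of a type and less RNA per cell cannot be told apart. The log2 fold change was −0.69 ± 0.242 (SE, n = 3 per group) in T vs. S, with an adjusted P-value of 0.0653 in edgeR's quasi-likelihood test. It was 0.81 ± 0.242 in A + T vs. T, with an adjusted P-value of 0.076, and 0.12 ± 0.233 in A + T vs. S, with an adjusted P-value of 0.785. Without animal 22, Scn4a passed in T vs. S (−0.69, adjusted P-value 0.0015) and in A + T vs. T (1.09, adjusted P-value 0.00146). Animal 22 is an A + T heart, so in T vs. S its absence changed the shared estimate of spread and not the hearts compared. Without animals 12 and 22 together Scn4a passed in T vs. S (−0.61, 0.00492), in A + T vs. T (1.02, 0.00327) and in A + T vs. S (0.41, 0.0465). That fit leaves out the A + T heart within the range of T and keeps the 2 highest values. Of 10 skeletal muscle genes listed, 5 were tested, and their summed level was 2077 to 2292 CPM in S, 1735 to 2200 CPM in T and 1740 to 1952 CPM in A + T. Nearly all of it was Ckm, the creatine kinase that heart muscle makes too, at 1733 to 2288 CPM, while Tnnt3, Tnni2, Mylpf and Actn3 stayed at or under 1.55 CPM in every library. In T vs. S, Actn3 was lower (log2 fold change −1.45, adjusted P-value 0.018), but not past the threshold without animals 12 and 22 (−1.25, adjusted P-value 0.0502), and 0 of the other 4 passed in any comparison of either fit. The part of these genes in the Scn4a result was not tested.

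**Figure D2:**
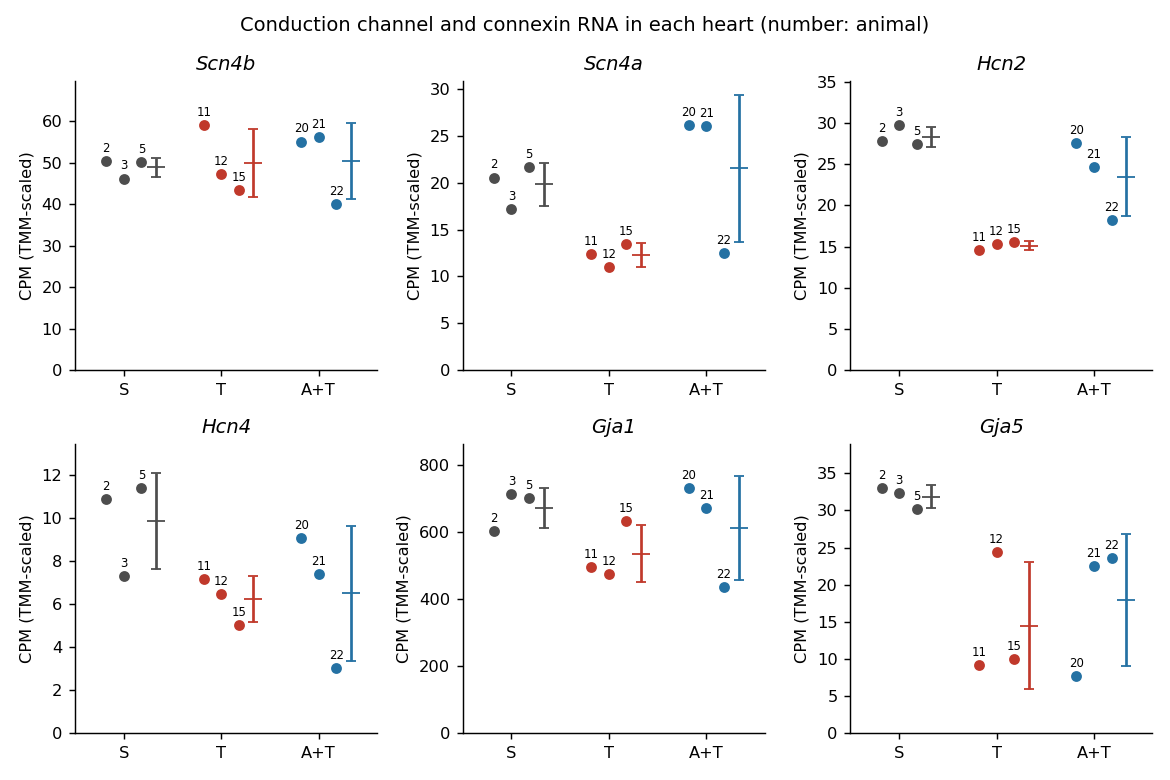
CPM with TMM scaling (y axis, from 0) of each of the 6 genes in every heart, with the animal number above each point and bars for the mean and SD of 3 animals. The 3 T hearts lie between 14.6 and 15.5 CPM for Hcn2, below all others, and Gja5 divides the hearts of T and of A + T.

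Of the other sodium channel genes, Scn7a, Scn10a, Scn3a and the beta subunit gene Scn3b are given here, and 0 of these 4 passed in any of the 3 comparisons in edgeR. By unadjusted P-value, Scn7a and Scn10a lay under 0.05 in T vs. S and in A + T vs. T, and 0 of the 4 in A + T vs. S. Scn10a, a neuronal type of channel also tied to cardiac conduction, stood at 4.81, 3.91 and 3.11 CPM in S, at 2.35, 2.61 and 2.43 CPM in T, and at 6.37, 3.01 and 4.31 CPM in A + T. All T values were below all others, with log2 fold changes of −0.68 ± 0.279 in T vs. S (adjusted P-value 0.11) and 0.89 ± 0.279 in A + T vs. T (adjusted P-value 0.0901). Scn7a, at 44.9 ± 1.37 CPM in S and 35.2 ± 4.14 CPM in T, passed as lower in T vs. S with animals 12 and 22 left out (−0.44, adjusted P-value 0.00792). Scn3b stood at 4.81 and 16.6 CPM in animals 12 and 22, which held airway and lung RNA, against 0.867 to 2.46 CPM in the other hearts. Its log2 fold changes of 0.21 in T vs. S and 1.73 in A + T vs. S became −1.08 and −0.28 without these animals. Among partner proteins of sodium channels, Pkp2, a desmosome plakophilin, and Fgf13, an intracellular modulator of sodium channels, were higher in T vs. S (0.59 and 0.44, adjusted P-values 0.00266 and 0.007), while Rangrf, which aids channel trafficking, was lower (−0.40, adjusted P-value 0.00675). These 3 did not pass in A + T vs. T or A + T vs. S, and they passed in T vs. S without animals 12 and 22 too.

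**Figure D3:**
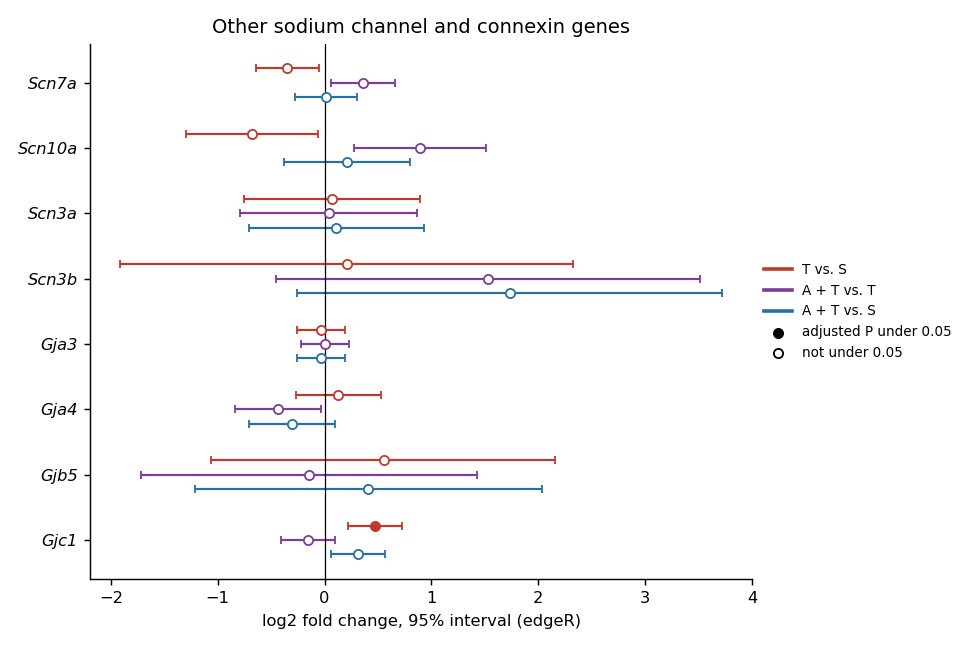
Log2 fold change with 95% interval (x axis, edgeR, 3 animals per group) of 8 other sodium channel subunit and connexin genes. Filled points have an adjusted P-value under 0.05, and the filled one is Gjc1 in T vs. S. Scn3b and Gjb5 were highest in animals 12 and 22, which held airway and lung RNA.

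Hcn2 and Hcn4 encode channels opened by hyperpolarization and by cyclic AMP. Hcn4 is the main form of the sinus node and Hcn2 the more abundant form in working muscle. Hcn2 stood at 27.7, 29.7 and 27.4 CPM in S. The T hearts held 14.6, 15.3 and 15.5 CPM, and the A + T hearts 27.6, 24.7 and 18.2 CPM. No T heart reached the lowest S or A + T heart, the 3 T values lay within 1 CPM of each other, and of the A + T hearts animal 20 lay within the S range and animals 21 and 22 between S and T. The log2 fold change was −0.91 ± 0.136 in T vs. S (95% interval −1.21 to −0.605, adjusted P-value 0.00154) and 0.64 ± 0.137 in A + T vs. T (0.332 to 0.938, adjusted P-value 0.027). In A + T vs. S it was −0.27 (−0.563 to 0.0217, adjusted P-value 0.223), so that this comparison did not tell the groups apart. By P-value Hcn2 ranked 390 of the genes tested in T vs. S and 403 in A + T vs. T.

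The Hcn2 call in T vs. S held whichever of the 9 animals was left out (−0.93 to −0.87, highest adjusted P-value 0.0102). The call in A + T vs. T was lost in 5 of those 9 fits, without animal 11, 12, 15, 20 or 21, with adjusted P-values between 0.0543 and 0.109 and log2 fold changes between 0.50 and 0.65. It was also lost when only T and A + T were fitted (0.64, adjusted P-value 0.0836) and with the deposited log2 values in limma (0.61, adjusted P-value 0.0591). It passed without animals 12 and 22 together, at 0.80 with an adjusted P-value of 0.00392. Genes of other cell types moved in the same comparisons as Hcn2. All 6 fibroblast genes were lower in T vs. S, their summed level being 1350 to 1553 CPM in S, 813 to 939 CPM in T and 1034 to 1509 CPM in A + T, and 4 of 6 were higher in A + T vs. T. Of 6 endothelial genes 4 were lower in T vs. S, with sums of 804 to 936 CPM in S, 489.6 to 617 CPM in T and 621 to 756 CPM in A + T, and 1 (Cdh5) was higher in A + T vs. T. Of all genes, 21.2% passed in T vs. S, 5.88% in A + T vs. T and 8.31% in A + T vs. S. With animals 12 and 22 left out, 5 of the fibroblast genes were higher in A + T vs. T and 0 of the endothelial ones (Cdh5 at 0.37, adjusted P-value 0.0682), while 5 endothelial genes were lower in T vs. S and 3 in A + T vs. S (1 with all animals). That fit called 26.4% of all genes in T vs. S, 6.55% in A + T vs. T and 9.42% in A + T vs. S. Of genes of cardiac nerves and glia, Dbh and Sox10 are given here. Dbh, the enzyme that makes noradrenaline, was lower in T vs. S (−1.94, adjusted P-value 0.000236), higher in A + T vs. T (1.13, adjusted P-value 0.0157) and lower in A + T vs. S (−0.81, adjusted P-value 0.0282). Sox10, a glial factor, was lower in T vs. S (−1.21, adjusted P-value 0.007). The part of these other cell types in the Hcn2 result was not tested. Sums of 5 ventricular genes, nearly all of it Myl2 and Myl3, lay between 8963 and 12110 CPM and overlapped between all groups. Of these genes, Lrrc10 was higher (0.60, adjusted P-value 0.0107) and Irx4 lower (−0.48, adjusted P-value 0.0222) in T vs. S. Lrrc10 was lower in A + T vs. T (−0.81, adjusted P-value 0.0105), and Irx4 was lower in A + T vs. S (−0.54, adjusted P-value 0.0291). The same calls held without animals 12 and 22. Of 6 cardiomyocyte genes in edgeR, Actc1 was lower (−0.90, adjusted P-value 0.0128) and Tnnt2 higher (0.34, adjusted P-value 0.0359) in T vs. S. In the other comparisons 0 of them passed. Without animals 12 and 22, Myh6 was also lower in T vs. S (−0.50, adjusted P-value 0.0356). In that fit Actc1 was higher in A + T vs. T (0.43, adjusted P-value 0.02) and lower in A + T vs. S (−0.44, adjusted P-value 0.0101).

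Hcn4 lies on chromosome 9 from 58822949 to 58863175 on the plus strand and, per gene length, had the lowest mean of the 6 genes in each group. It stood at 10.9, 7.31 and 11.4 CPM in S, at 7.18, 6.48 and 5.05 CPM in T, and at 9.09, 7.39 and 3.02 CPM in A + T. S and T came close to each other at animals 3 and 11, and A + T reached from below T into the S range, with animal 22 the lowest of all and animals 2 and 5 of S above every A + T heart. For T vs. S a log2 fold change of −0.65 ± 0.333 did not pass (adjusted P-value 0.194), nor did those of 0.05 in A + T vs. T (0.954) and −0.60 in A + T vs. S (0.28). Without animal 22 the T vs. S value of −0.63 passed with an adjusted P-value of 0.0366. Animal 22 is an A + T heart, so that fit compared the same T and S hearts with another estimate of spread. The interval in T vs. S ran from −1.39 to 0.0913. Per 100 Hcn2 counts there were 24.6 to 41.8 Hcn4 counts in S, 32.7 to 49.5 in T and 16.8 to 33.03 in A + T. These ranges overlapped between all groups, and the two-sided exact permutation tests (smallest possible P = 0.1 for 3 against 3 animals) gave P = 0.5, 0.2 and 0.4 for the 3 comparisons in the same order as above.

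**Figure D4:**
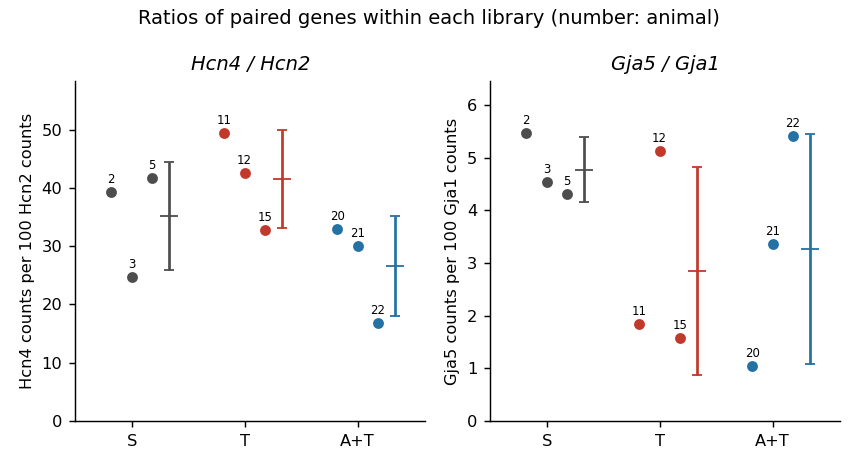
Counts of the first gene per 100 counts of the second (y axis, from 0) in every heart for Hcn4 to Hcn2 and Gja5 to Gja1, with the animal number above each point and bars for mean and SD of 3 animals. The Gja5 to Gja1 ratio lies between 4.31 and 5.48 in S and spreads from 1.05 to 5.42 in A + T.

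The nodal marker genes were low too, with a sum over 6 genes of 24.4 to 29.4 CPM in S, 30.9 to 41.3 CPM in T and 27.5 to 34.4 CPM in A + T, and 0 of the 5 tested passed in any comparison by edgeR's test. At an unadjusted P-value under 0.05 there was 1 in T vs. S (Tbx3), 1 in A + T vs. T (Shox2) and 0 in A + T vs. S. Tbx3, a repressor that marks the conduction system, passed as higher in T vs. S once animals 12 and 22 were left out. Of 14 genes for calcium channels, G protein-gated potassium channels, calcium release (Ryr2), sodium-calcium exchange (Slc8a1), the HCN partner Pex5l and cyclic AMP-binding Popeye proteins, 1 was higher and 1 lower in T vs. S, 2 were lower in A + T vs. T and 1 was lower in A + T vs. S. Of all genes, 21.2%, 5.88% and 8.31% passed in these comparisons. Kcnj5, a subunit of the acetylcholine-gated potassium channel, was lower than in S both in T (−0.42, adjusted P-value 0.00806) and in A + T (−0.46, adjusted P-value 0.0145). Popdc3 was higher in T vs. S (0.32, adjusted P-value 0.0383) and lower in A + T vs. T (−0.49, adjusted P-value 0.0197), where Popdc2 was also lower (−0.34, adjusted P-value 0.036). Without animals 12 and 22 the T vs. S count was 2 higher and 4 lower, and the A + T vs. S count 2 lower, against 26.4% and 9.42% of all genes.

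Gja1 encodes connexin 43, the main gap junction protein of ventricular muscle, and lies on chromosome 10 from 56377300 to 56390419 on the plus strand. It stood at 604, 713 and 700.3 CPM in S. The T hearts held 497, 476 and 632 CPM and the A + T hearts 732, 671 and 437 CPM. Animal 15 of T lay inside the S range, and A + T held both the highest and the lowest of the 9 values, the lowest in animal 22. The log2 fold changes of −0.33 (95% interval −0.729 to 0.0682) in T vs. S, 0.20 (−0.201 to 0.596) in A + T vs. T and −0.13 (−0.531 to 0.265) in A + T vs. S had adjusted P-values of 0.218, 0.561 and 0.678. Without animal 22 the A + T vs. S value was 0.07.

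Gja5 encodes connexin 40, the gap junction protein of atrial muscle, His-Purkinje fibres and arterial endothelium, and lies on chromosome 3 from 97032402 to 97053634 on the plus strand. It stood at 33.1, 32.4 and 30.1 CPM in S. The T hearts held 9.10, 24.4 and 9.91 CPM and the A + T hearts 7.66, 22.5 and 23.6 CPM. All 6 hearts of T and A + T were below all S hearts, and within both groups the hearts fell apart, animals 11, 15 and 20 being at or under 9.91 CPM and animals 12, 21 and 22 at or over 22.5 CPM. The log2 fold change was −1.12 ± 0.416 in T vs. S (95% interval −2.04 to −0.199, adjusted P-value 0.0813), 0.29 ± 0.424 in A + T vs. T (adjusted P-value 0.738) and −0.83 ± 0.41 in A + T vs. S (−1.74 to 0.0736, adjusted P-value 0.226). It passed in T vs. S without animal 12 (−1.75, adjusted P-value 0.016), without animal 20 (−1.12, adjusted P-value 0.0282) and without animals 12 and 22 together (−1.74, adjusted P-value 0.00419). Animal 20 is an A + T heart, so its absence changed the shared estimate of spread and not the T and S hearts compared. Per 100 Gja1 counts there were 5.48, 4.55 and 4.31 Gja5 counts in S, 1.84, 5.14 and 1.58 in T, and 1.05, 3.35 and 5.42 in A + T. The ratio overlapped between all groups, with exact permutation P-values of 0.3 in T vs. S, 0.9 in A + T vs. T and 0.3 in A + T vs. S. After Benjamini-Hochberg adjustment over the 9 ratio tests run, the values for both ratios lay between 0.45 and 0.9.

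The hearts that differed in Gja5 also differed in some genes of atrial muscle, but not all of these genes divided the hearts as Gja5 did. The summed level of 10 atrial genes, most of it Nppa and Pam, was 5316 to 5459 CPM in S. It was 3705, 8044 and 2553 CPM in animals 11, 12 and 15 of T and 2189, 3221 and 3746 CPM in animals 20, 21 and 22 of A + T. Myl7, the atrial myosin light chain, stood at 106, 410.2 and 23.2 CPM in T and at 43.3, 225 and 242 CPM in A + T, against 308 to 354 CPM in S. The order was not the same throughout: animals 11 and 21 had nearly equal means over the 10 atrial genes, −0.405 and −0.431 on the log2 scale about the mean of each gene, with Gja5 at 9.10 and 22.5 CPM. Bmp10 stood at 1.13, 0.359 and 51.5 CPM in animals 12, 21 and 22, and at 1.86, 1.78 and 0.247 CPM in animals 11, 15 and 20. Kcna5 was 6.37, 7.32 and 7.08 CPM in animals 20, 21 and 22. In edgeR, 1 of the 10 atrial genes was lower in T vs. S (Bmp10, −6.07 ± 1.43, adjusted P-value 0.0135) and 1 in A + T vs. T (Kcna5, −0.72, adjusted P-value 0.0422), against 21.2% and 5.88% of all genes. With animals 12 and 22 left out, 7 of 10 were lower in T vs. S, 0 passed in A + T vs. T (Kcna5 at −0.58, adjusted P-value 0.111), and 3 were lower in A + T vs. S. Of all genes, 26.4%, 6.55% and 9.42% passed in that fit. How much atrial tissue each sample held is not given in the sources used here, and the part of these genes in the Gja5 result was not tested. Summed levels of 6 His-Purkinje genes, most of it Irx3 at 35.2 to 55.3 CPM, overlapped between S and A + T (64.4 to 73.2 and 69.3 to 81.2 CPM). They were 79.8 to 82.7 CPM in T, which overlapped with A + T. Means over these genes, on the log2 scale about the mean of each gene, overlapped between S (−0.0492 to 0.157) and T (−0.228 to 0.164). Of the His-Purkinje genes, Irx3 was higher in both other groups than in S (0.47 for T and 0.32 for A + T). When animals 12 and 22 were left out, Irx3 no longer passed in A + T vs. S (0.31, adjusted P-value 0.0587), and Cpne5 was lower than in S in both T and A + T (−1.69 and −1.64). Of 6 arterial endothelial genes, Efnb2 and Dll4 were lower in T vs. S (−0.84 and −0.83) and Sox17 was higher (0.76), and Efnb2 was higher in A + T vs. T (0.79). The fit without animals 12 and 22 added Bmx as lower in T vs. S (−1.11) and Dll4 as higher in A + T vs. T (0.71). The shares of all genes that passed were those given above for the atrial genes.

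**Figure D5:**
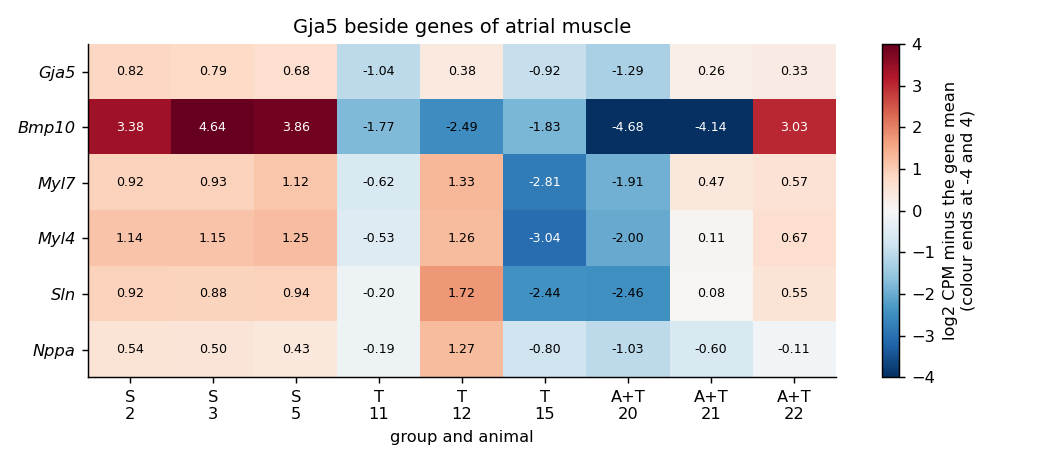
Log2 CPM of Gja5 and of 5 atrial genes in each heart (columns, by group and animal), with the mean of each gene over the 9 hearts subtracted. Gja5 lies between −1.29 and −0.92 in animals 11, 15 and 20 and between 0.26 and 0.82 in the others.

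Among 4 other connexin genes (Gja3, Gja4, Gjb5, Gjc1) and the pannexin gene Panx1, Gjc1, which encodes the nodal connexin 45, was higher in T vs. S (0.47 ± 0.114, adjusted P-value 0.0153). It stood at 15.8, 18.7 and 15.8 CPM in S, at 22.8, 23.5 and 23.6 CPM in T, and at 20.3, 18.4 and 24.0 CPM in A + T. All T values were above S. Of the A + T hearts, animal 21 lay within the S range, animal 20 between S and T, and animal 22 above every T heart. The other 4, among them Gja3 at 23.3 to 29.6 CPM and Gja4 at 6.92 to 12.2 CPM, did not pass in any comparison, and Gjc1 did not pass in A + T vs. T or A + T vs. S. Gjb5 was highest in animals 12 and 22 (2.50 and 2.40 CPM), against 0.431 to 0.913 CPM in the other hearts. Of 15 genes of the intercalated disc, where gap junctions and sodium channels sit, 4 were higher and 1 lower in T vs. S, 3 were lower in A + T vs. T and 1 was higher in A + T vs. S. The shares of all genes that passed were 21.2%, 5.88% and 8.31%. Cdh2, the cadherin that joins heart muscle cells, was higher in T vs. S (0.62, adjusted P-value 0.00244) and lower in A + T vs. T (−0.57, adjusted P-value 0.0146). Des, the intermediate filament desmin, had values of 0.59 and −0.59 (adjusted P-values 0.00318 and 0.0129). Pkp2 and Dsg2, a desmosomal cadherin, were higher in T vs. S (0.59 and 0.47), and Tjp1, a scaffold that borders gap junction plaques, was lower (−0.34). Xirp1 was lower in A + T vs. T (−0.64), and Dsg2 was higher in A + T vs. S (0.31). Without animals 12 and 22, 6 were higher and 3 lower in T vs. S (against 26.4% of all genes), and the other 2 counts were as before.

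Of 25 transcription factors of the conduction system and the heart chambers, 1 was higher and 4 lower in T vs. S, where 21.2% of all genes passed. Without animals 12 and 22 the counts were 3 and 8, where 26.4% of all genes passed. With all animals, Irx3, a regulator of fast conduction in the Purkinje network, was the one that was higher, at 0.47 with an adjusted P-value of 0.00293. Id2 (−0.62), Irx4 (−0.48), Gata4 (−0.43) and Nkx2-5 (−0.30) were lower. In A + T vs. T, Id2 was higher (0.52, adjusted P-value 0.0337) and 0 others passed, where 5.88% of all genes did. Irx4 (−0.54) and Nkx2-5 (−0.43) were lower and Irx3 (0.32) higher in A + T vs. S, against 0 higher and 3 lower (Irx4, Nkx2-5 and Tbx5) without animals 12 and 22. Of all genes, 8.31% passed in A + T vs. S, and 9.42% without these animals.

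Levels of different genes were compared on the deposited log2 scale per gene length. In S the order was Gja1 at 7.75 ± 0.132 (SD, n = 3), Scn4b at 3.52 ± 0.0684, Gja5 at 3.32 ± 0.0701, Hcn2 at 3.14 ± 0.0643, Scn4a at 1.58 ± 0.17 and Hcn4 at 1.36 ± 0.348. Only Scn4a and Hcn4 overlapped as neighbours in that order in S. In T the order was Gja1 at 7.41, Scn4b at 3.54, Hcn2 at 2.25, Gja5 at 2.04, Scn4a at 0.90 and Hcn4 at 0.72, with overlap between Hcn2 and Gja5 and between Scn4a and Hcn4. In A + T it was Gja1 at 7.58, Scn4b at 3.55, Hcn2 at 2.85, Gja5 at 2.33, Scn4a at 1.63 and Hcn4 at 0.65, and each neighbour from Hcn2 down overlapped with the next. Gja5 was thus above Hcn2 in every S heart, a position it did not hold in 4 of the 6 other hearts.

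The genes whose pattern over the 9 libraries was most like that of each member were sought among 12677 genes, by the root mean square difference of log2 CPM after the mean of each gene was subtracted. For Hcn2 they were Nrp1 (0.0792), Adamts7 (0.08) and Them6 (0.0819), where Hcn2 itself varied by 0.404 about its mean. For Scn4b they were Etl4 (0.049), 3425401B19Rik (0.0728) and R3hdm1 (0.0734), against a variation of 0.173. For Gja1 they were Klhl23 (0.102), Gnpda1 (0.112) and Ncapg2 (0.119), against 0.262. The neighbours of Scn4a, Hcn4 and Gja5 lay at larger differences, and these members also varied most about their own means. Those of Scn4a were Stab1 (0.183), Trub1 (0.184) and Igsf10 (0.191), against 0.453, and those of Hcn4 were Prrt1 (0.205), Wnk2 (0.225) and Shank1 (0.242), against 0.542. Those of Gja5 were Npr3 (0.203), Tbc1d1 (0.235) and Plekha7 (0.256), against 0.788.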

How the data were processed

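Heart RNA of 9 mice, 3 in each of 3 groups, was grouped by the sample labels. The authors required an RNA integrity number of 7 or more, sequenced paired ends, aligned with STAR to mm10 and deposited featureCounts counts per RefSeq gene, strand-specific and not normalized, with mapping quality of at least 10. They also deposited log2 values, whose formula is not given in the sources used here. Log2 CPM computed here minus these values was nearly constant per gene across libraries (median SD 0.00239), so that they behave as log2 values per gene length with TMM scaling. The submitters' processing notes also name FastQC and edgeR, and 0 columns were left unused. Strand was used in counting, so antisense overlap was not treated as uncertain.

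As in the study's methods, a gene was dropped when over 4 libraries had a CPM below 0.5, which removed 526 of 13890. The 3 comparisons were fitted together with edgeR 4.0.16 (R 4.3.3), TMM scaling and the quasi-likelihood test, with Benjamini-Hochberg adjustment over 13364 genes. The SE is the size of the log2 fold change over the square root of F, and 95% intervals use the same scale. Ratios were tested by two-sided exact permutation on log2 ratios with 0.5 counts added. Libraries of the same group differed beyond counting noise. A CPM of 3 counts was 0.152 to 0.281, and such limits cover counting error only. The 6 genes and the 7 pathway and 11 marker lists were chosen with earlier results of these data known. Beside the 6 genes, up to 3 rises and 3 falls per list with an adjusted P-value under 0.05 were named by size, with other tested sodium channel and connexin genes and the 3 genes nearest in pattern. List genes added outside this rule (Actn3 and other muscle fibre genes, Tbx3 and Myl7) were named after their values were seen. Some listed genes and 1 of the 3 ratios are not reported here, and list counts cover all tested genes.

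Alternatives were DESeq2 1.42.0, the likelihood ratio test, limma-voom (limma 3.58.1), upper-quartile and RLE scaling, library totals, no filter, 10 counts in every library, only the compared groups, the deposited log2 values, the thresholds in the study's methods, other added counts for the ratios, and each animal left out. Leaving out animals 12 and 22 together was added after the data were seen. The steps were tested on simulated data. Coordinates and promoter windows are RefSeq GRCm38.p6, the assembly that mm10 names, and all 6 genes matched. Tables and plots were made with Python 3.11.15, pandas 2.3.3 and matplotlib 3.10.9.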

Additional observations from a re-analysis of the deposited data

How the results depend on the processing

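With 3 animals per group, an exact test of 1 value cannot go below P = 0.1, and calls near the threshold moved with the setting. Hcn2 was called in T vs. S under each of 11 alternatives that refit all genes and in A + T vs. T under 9 of them. The number of the 6 genes called in T vs. S was 1 in the fit reported, 2 with DESeq2 and with library totals (Scn4a, Hcn2), 3 with the likelihood ratio test and at the study's thresholds (Scn4a, Hcn2, Gja5) and 4 with only the compared groups (these and Hcn4). In A + T vs. T it was 1 in the fit reported, 2 with DESeq2, with the likelihood ratio test and at the study's thresholds (Scn4a, Hcn2), and 0 with only the compared groups and with the deposited log2 values. Without animals 12 and 22 together the 3 counts were 3, 2 and 1, and that fit called 3531, 875 and 1259 of the 13364 genes. With 1 animal left out, 1 to 3 genes were called in T vs. S and 0 to 2 in A + T vs. T. The A + T vs. S count stayed at 0 in those fits.

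Directions changed only for values that had not passed. Hcn4 in A + T vs. T was −0.12 with limma-voom and −0.069 with the deposited log2 values, and Gja1 in A + T vs. S was 0.066 without animals 12 and 22. With 1 animal left out, Scn4b ranged from −0.11 to 0.13 in T vs. S, from −0.078 to 0.15 in A + T vs. T and from −0.0305 to 0.19 in A + T vs. S. Hcn4 ranged from −0.29 to 0.39 in A + T vs. T. In A + T vs. S, Scn4a ranged from −0.045 to 0.41 and Gja1 from −0.28 to 0.066. The log2 Gja5 to Gja1 ratio in A + T vs. T ranged from −0.39 to 0.79. The causes were not tested. Each fit without 1 animal leaves a group of 2, whose spread is shared with the other groups. The fit without animals 12 and 22 leaves T and A + T with 2 animals each. No paired analysis was possible because the animal numbers differ between the groups.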
